A study of Saccharomyces cerevisiae with 8 samples.

Results

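The G1/S genes described here are 10 genes of budding yeast, Saccharomyces cerevisiae, that control or carry out the burst of transcription at the start of the division cycle. They were taken by name, SWI4, MBP1, SWI6, WHI5, NRM1, YOX1, CDC21, PLM2, TOS4 and SWE1, and are 10 of the 6692 genes in the deposited count table. All 10 had enough reads to be tested, as did 5667 genes in all. Messenger RNA was sequenced from cells with RAD27 knocked out and from wild type cells, each diluted from an overnight culture in YPD, a rich glucose medium, and grown for 4 hours at 37 or 30 °C. The 4 groups, of 2 libraries each, were the knockout at 37 °C, the knockout at 30 °C, wild type at 37 °C and wild type at 30 °C. The sources used here do not give the strain background, the mating type, how the gene was removed or how many knockout clones were used. RAD27 encodes the flap endonuclease that removes the 5′ flaps of Okazaki fragments on the lagging strand, and the series asked how expression changes when that step is faulty.

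In budding yeast a G1/S wave of transcription is set off once a cell has grown enough to commit to division. SBF, made of the DNA-binding protein Swi4 and its partner Swi6, acts mainly on genes for G1 cyclins, budding and the cell wall, whereas MBF, made of Mbp1 and Swi6, acts mainly on genes for DNA replication and repair. Whi5 holds SBF inactive until cyclin kinase removes it, Nrm1 turns MBF targets off again in S phase, and Yox1 limits Mcm1-dependent genes, SWI4 among them, to the M/G1 boundary. When replication is blocked, the checkpoint kinase Rad53 acts on Nrm1, and MBF targets stay on.

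Counted reads per library numbered 4734266 at the lowest and 5588983 at the highest. Levels are in CPM, the usual unit of counts scaled to library size, after TMM scaling between libraries, on which 3 reads of a library correspond to 0.506 to 0.669 CPM. RAD27 itself had 0 reads in all 4 knockout libraries, against 90.4 and 96.8 CPM in wild type at 37 °C and 109.6 and 118.9 CPM in wild type at 30 °C. On the first principal component of all genes, with 61.6% of the variance, the knockout libraries at 37 °C lay at 33.8 and 43.6 and the other 6 between -22.5 and -6.64. The replicates of that group also differed most from each other, with a chi-square per degree of freedom of 8.76, against 4.03 in the knockout at 30 °C, 1.86 in wild type at 37 °C and 2.54 in wild type at 30 °C, where counting error alone gives about 1. The sources used here do not give the share of cells in each phase, so fewer cells in G1/S and less RNA per cell in G1/S cannot be told apart in any value given here.

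The sequence before each start codon shows which of these genes carry the letters that SBF and MBF are known to read. The 600 bases upstream were searched on both strands of the R64 assembly of RefSeq for the MCB (MluI cell cycle box, ACGCGT, the MBF site), its core ACGCG, and the SCB (Swi4 cell cycle box, CACGAAA or CGCGAAA, the SBF site). Each MCB contains the core on both strands, and the core overlaps CGCGAAA where an A precedes it. Of 6002 such windows in the genome, 6.33% held an MCB, 27.5% the core and 14.2% an SCB. The MCB was found before SWI4, YOX1 and CDC21, the SCB before SWI4, PLM2, TOS4 and SWE1, and the core before 8 of the 10 genes. Before SWI6 and WHI5 none of these letters occurred in the window. A window of fixed length can run into the neighbouring gene, which lies 269 bases before SWI6 and 344 bases before WHI5. The only core of MBP1 lies 541 bases before its start codon, beyond the near end of the neighbouring gene YDL057W at 456 bases.

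CDC21 and YOX1 are shown for their complete MCB, in capitals, within the strand of the gene. The distances of the MCB from the start codon were 153 and 116 bases for CDC21 and 492 bases for YOX1.
CDC21, chrXV:467730-467759, minus strand: taatatttggtgACGCGTtaaatagaaaaa
CDC21, chrXV:467693-467722, minus strand: agaccttaattgACGCGTttcctgaaatat
YOX1, chrXIII:220897-220926, plus strand: tctggctctaaaACGCGTaaaccattcact

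SWI4 is shown because it carries both SBF and MBF letters and, 438 bases before its start codon, a match to the early cell cycle box (ECB), the site at which Mcm1 acts with Yox1. The ECB was searched on both strands as the consensus of that name and occurred in 1.08% of all windows, with SWI4 the single match among the 10 genes. Capitals mark the MCB in the line that comes first and the ECB in the other.
SWI4, chrV:386367-386396, minus strand: gcgtttgaagtgACGCGTcactaaccatga
SWI4, chrV:386307-386336, minus strand: ctgcttaTTTCCCGTTTAGGAAAtaaatgg

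PLM2 and TOS4 held no complete MCB but held the core, and their sequence from 320 to 161 bases before the start codon is shown so that the spacing of the letters can be seen. Capitals mark every match to the core and to the SCB on either strand. PLM2 had 2 cores on opposite strands, the second overlapping an SCB, and TOS4 had 1 core overlapping an SCB and a separate SCB.
PLM2, chrIV:1451033-1451192, plus strand: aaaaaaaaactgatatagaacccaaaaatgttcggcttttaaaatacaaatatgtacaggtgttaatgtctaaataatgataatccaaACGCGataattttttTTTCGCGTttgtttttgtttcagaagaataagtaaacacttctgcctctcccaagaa
TOS4, chrXII:522173-522332, minus strand: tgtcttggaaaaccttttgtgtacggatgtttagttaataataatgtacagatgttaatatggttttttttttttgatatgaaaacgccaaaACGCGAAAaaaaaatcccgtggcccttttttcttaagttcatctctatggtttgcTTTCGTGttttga

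SWE1 held 2 SCBs, 302 and 250 bases before its start codon, each preceded by an A, so that each overlaps a core. Another core lies next to the one at the match nearer to the start codon. Capitals mark the SCB.
SWE1, chrX:79553-79581, minus strand: ggtgataacgaCGCGAAAaatattttttc
SWE1, chrX:79501-79529, minus strand: ttgcgacgcgaCGCGAAAaaaatgcagag

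**Figure D1:**
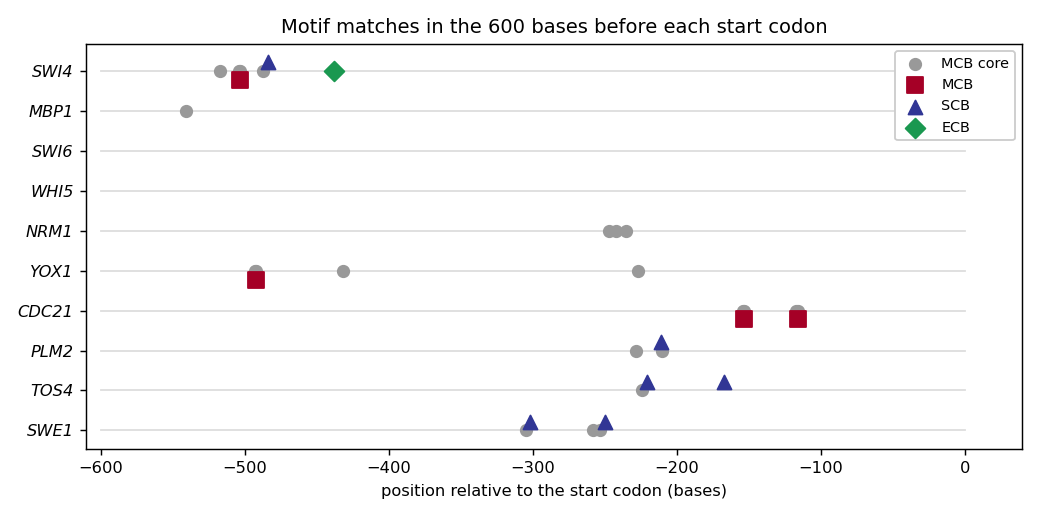
Matches to the MCB, its core, the SCB and the ECB in the 600 bases before the start codon of each of the 10 genes, with position in bases on the horizontal axis and 1 row per gene. The matches of NRM1, CDC21, PLM2, TOS4 and SWE1 lie within 305 bases of the start codon, those of SWI4 and MBP1 lie at 438 bases or more, YOX1 has matches in both ranges, and SWI6 and WHI5 have none.

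In the knockout at 37 °C, against wild type at 37 °C, the target genes PLM2, TOS4, CDC21 and SWE1 were higher and the DNA-binding subunits SWI4 and MBP1 lower. At 30 °C PLM2 was higher and SWI6 lower in the knockout, and the other 8 genes did not pass. The test was edgeR's quasi-likelihood test over all 5667 genes, with a threshold of 0.05 on the adjusted p. At 37 °C 6 of 10 genes passed, where 59.8% of all genes did, and at 30 °C 2 of 10 passed, where 29.6% of all genes did. The share that passed among the 10 was thus near that of all genes at 37 °C and not above it at 30 °C. The libraries of the genotypes did not overlap for 8 of the 10 at 37 °C, where 80.6% of all genes had no overlap, and for 7 of the 10 at 30 °C, where 67.9% had none. The median log2 fold change of the 10 was 0.18 at 37 °C and 0.06 at 30 °C, against 0.01 and 0.00 for all genes.

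At 37 against 30 °C, PLM2 and SWE1 were higher in the knockout and YOX1 and TOS4 lower, 4 of 10 where 59.1% of all genes passed. In wild type SWI4 and MBP1 were higher and TOS4, WHI5 and YOX1 lower, 5 of 10 where 32.8% of all genes passed. The libraries of the temperatures did not overlap for 8 of the 10 in the knockout, where 79.3% of all genes had no overlap, and for 7 of the 10 in wild type, where 71.2% had none. The medians of the 10 log2 fold changes were -0.07 in the knockout and -0.23 in wild type, against 0.04 and 0.01 for all genes. The temperature step differed between the genotypes for PLM2 and YOX1, 2 of 10 where 33.6% of all genes passed this test of the difference, called the interaction. Comparisons that share a group of libraries are not independent of each other. With scaling by library size alone, which moves the log2 fold changes with heat by a median of 0.24 in the knockout and 0.13 in wild type, the split was 5 higher and 1 lower in the knockout, 3 higher and 2 lower in wild type and 3 higher and 0 lower in the interaction.

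**Figure D2:**
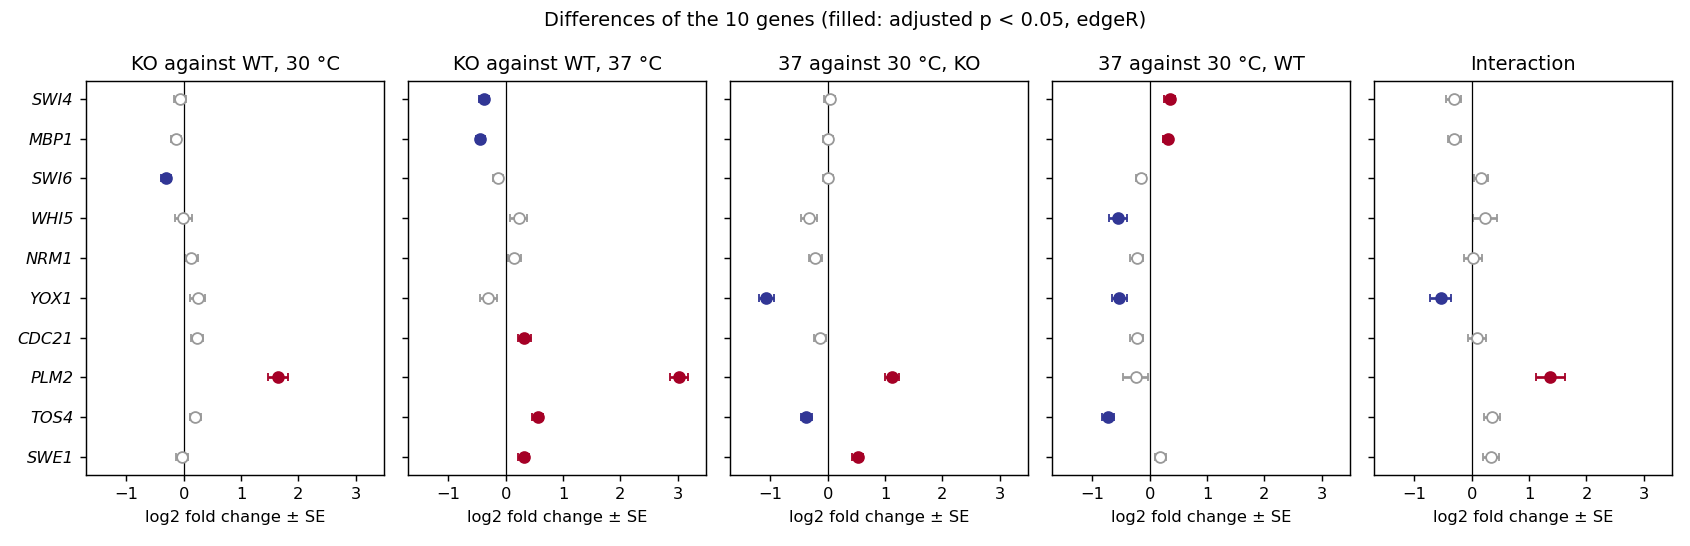
Log2 fold change ± SE of the 10 genes in the 5 comparisons, 1 panel each, with genes from top to bottom and filled points for an adjusted p under 0.05. PLM2 stands far to the right in both knockout against wild type panels, at 1.65 and 3.02, while the other 9 genes lie between -0.44 and 0.56 there.

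PLM2 (YDR501W, chromosome IV, 1451353 to 1452918, plus strand, 1 exon) encodes a forkhead-associated domain protein that is known as a target of SBF and MBF and as induced by DNA damage. It had 101.6 and 112.7 CPM in the knockout at 37 °C, 52.2 and 46.1 CPM in the knockout at 30 °C, 14.0 and 12.5 CPM in wild type at 37 °C and 19.6 and 12.0 CPM in wild type at 30 °C. Every knockout library lay above every wild type library, and the heated knockout libraries lay above the unheated ones. The reads behind these levels numbered 555 and 668, 268 and 243, 74 and 66, and 88 and 58 in the same order. PLM2 was 8.09-fold higher in the knockout at 37 °C (log2 fold change 3.02 ± 0.16 SE, adjusted p = 1.37e-08) and 3.13-fold higher at 30 °C (1.65 ± 0.17, adjusted p = 3.5e-05), which placed it at rank 35 and rank 32 among the rises of all 5667 genes.

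Heat raised PLM2 in the knockout 2.18-fold (log2 fold change 1.13 ± 0.13, adjusted p = 7.96e-06). In wild type its log2 fold change with heat was -0.24 ± 0.22 (adjusted p = 0.43), with overlapping libraries. The interaction was 1.37 ± 0.25 (adjusted p = 0.00166). These 2 calls and both calls against wild type held under every alternative run, with the rise at 30 °C between 1.32 and 2.04 on the log2 scale when single libraries were left out.

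TOS4 (YLR183C, chromosome XII, 520543 to 522012, minus strand, 1 exon) is the duplicate gene of PLM2 from the ancient whole-genome duplication and encodes a related forkhead-associated domain protein that acts with histone deacetylases. Its levels were 73.4 and 73.1 CPM in the knockout at 37 °C, 88.3 and 101.3 CPM in the knockout at 30 °C, 52.9 and 46.8 CPM in wild type at 37 °C and 85.6 and 79.5 CPM in wild type at 30 °C. The wild type libraries at 37 °C were the lowest, and both knockout libraries at 37 °C lay below all unheated ones. TOS4 was higher in the knockout than in wild type at 37 °C (0.56 ± 0.10, adjusted p = 0.000433). At 30 °C the difference was 0.20 ± 0.09 and did not pass (adjusted p = 0.125).

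Heat lowered TOS4 in wild type by a log2 fold change of -0.73 ± 0.10 (adjusted p = 0.000166) and in the knockout by -0.37 ± 0.09 (adjusted p = 0.00393). The call in the knockout was lost with scaling by library size (adjusted p = 0.269) and without knockout replicate 2 at 30 °C (adjusted p = 0.059). The interaction of 0.35 ± 0.14 did not pass (adjusted p = 0.0652), though it did with library size scaling (adjusted p = 0.0378) and without knockout replicate 2 at 30 °C (adjusted p = 0.0327). SWI6 ends 191 bases from TOS4 on the opposite strand, and whether the counting was stranded is not given, so reads that run past an end could be counted with the neighbour. The same holds for CDC21, which ends 131 bases from SGO1. It also holds for MBP1, SWE1, PLM2 and YOX1, which face an opposite-strand neighbour 295, 328, 391 and 423 bases away.

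Within a library, the reads of PLM2 per base of gene over those of TOS4 were 1.30 and 1.45 in the heated knockout, 0.555 and 0.427 in the unheated knockout, 0.249 and 0.250 in heated wild type and 0.215 and 0.141 in unheated wild type. PLM2 was thus the higher of the pair in the heated knockout alone among the 4 groups. This ratio does not depend on the scaling between libraries. No test was made of it.

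**Figure D3:**
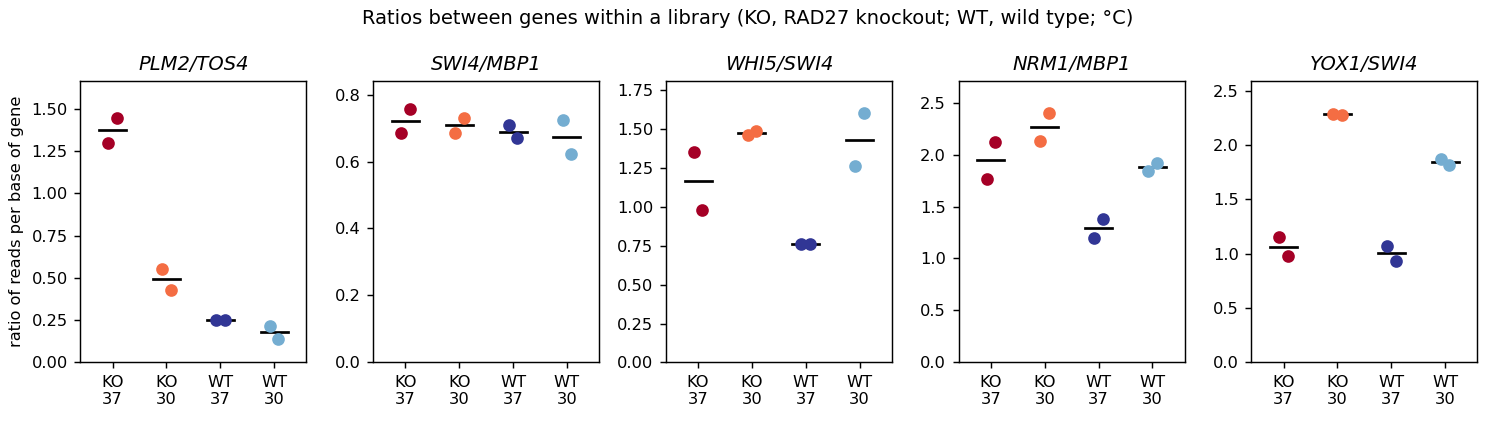
Ratios of reads per base of gene within each of the 8 libraries for PLM2 over TOS4 and for 4 pairs of regulators, 1 panel per pair with its own vertical axis from 0, points for libraries and bars for the mean of 2. PLM2 over TOS4 is 1.30 and 1.45 in the knockout at 37 °C and at most 0.555 in the other groups, while SWI4 over MBP1 stays between 0.622 and 0.757.

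The genes with the most similar profile to PLM2 were sought over all 5667 genes, by the root mean square difference of log2 CPM over the 8 libraries after each gene was centred on its own mean. They were RNR4 (0.29) and RNR2 (0.29), for subunits of ribonucleotide reductase, and NDE2 (0.34), for a mitochondrial NADH dehydrogenase, against a median of 1.25 over all genes. RNR4 averaged 3691 ± 364 CPM in the knockout at 37 °C, 1699 ± 136 CPM in the knockout at 30 °C, 621.0 ± 1.89 CPM in wild type at 37 °C and 649.0 ± 66.1 CPM in wild type at 30 °C (SD, n = 2). NDE2 was a low gene, with 20.7 ± 7.25, 6.45 ± 0.803, 2.55 ± 0.676 and 3.58 ± 1.56 CPM in the same order. No other of the 10 genes passed in both knockout against wild type comparisons, so no neighbours are given for them.

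CDC21 (YOR074C, chromosome XV, 466675 to 467589, minus strand, 1 exon) encodes thymidylate synthase, which makes the thymidine nucleotide for DNA, and is a classic MBF target. It had 67.5 and 69.0 CPM in the knockout at 37 °C, 72.1 and 78.0 CPM in the knockout at 30 °C, 59.3 and 49.8 CPM in wild type at 37 °C and 69.4 and 58.4 CPM in wild type at 30 °C. At each temperature both knockout libraries lay above both wild type libraries. At 37 °C CDC21 was higher in the knockout (0.32 ± 0.11, adjusted p = 0.0216), a call lost with DESeq2 (adjusted p = 0.102), without wild type replicate 2 at 37 °C (0.18, adjusted p = 0.271) and without knockout replicate 2 at 37 °C (adjusted p = 0.0517). At 30 °C the difference was 0.24 ± 0.11 and did not pass (adjusted p = 0.121).

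Heat changed CDC21 in neither genotype beyond the threshold, with log2 fold changes of -0.14 ± 0.11 in the knockout and -0.23 ± 0.11 in wild type. The other enzymes of thymidylate supply did not move as 1 group. Of 4 such genes, CDC8, for thymidylate kinase, was higher in the knockout at 37 °C (0.30 ± 0.11) and DUT1, for dUTPase, and DCD1, for dCMP deaminase, were lower (-0.35 ± 0.10 and -0.31 ± 0.12). These 3 of 4, where 59.8% of all genes passed, became 1 with DESeq2 and with library size scaling (1 higher, 0 lower). No fit with a single library left out kept all 3. At 30 °C, where 29.6% of all genes passed, 0 of the 4 did with edgeR over all 8 libraries. With the 4 libraries of the comparison alone 1 did, and the count also depended on single knockout libraries left out. DFR1, for dihydrofolate reductase, passed in none of the 5 comparisons.

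SWE1 (YJL187C, chromosome X, 76803 to 79262, minus strand, 1 exon) encodes the Wee1 kinase of budding yeast, which holds back mitosis by phosphorylating Cdc28, and is an SBF target. It stood at 150.7 and 148.8 CPM in the knockout at 37 °C, 100.004 and 108.5 CPM in the knockout at 30 °C, 115.6 and 125.7 CPM in wild type at 37 °C and 118.0 and 94.7 CPM in wild type at 30 °C. The heated knockout libraries were above the other 6, and the unheated groups overlapped. SWE1 was higher in the knockout at 37 °C (0.31 ± 0.09, adjusted p = 0.0122), a call lost without wild type replicate 1 at 37 °C (adjusted p = 0.149), while at 30 °C its log2 fold change was -0.03 ± 0.10.

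Heat raised SWE1 in the knockout (0.52 ± 0.10, adjusted p = 0.00046). In wild type the value was 0.18 ± 0.10 (adjusted p = 0.175), which passed with library size scaling (adjusted p = 0.0439) and without wild type replicate 1 at 30 °C (adjusted p = 0.0333). The interaction of 0.34 ± 0.14 did not pass (adjusted p = 0.0767), but did with library size scaling (adjusted p = 0.0409) and without wild type replicate 2 at 30 °C (adjusted p = 0.0192). Among 7 genes that act with Swe1, 3 were higher and 2 lower in the knockout at 37 °C (4 and 1 with library size scaling), near the 59.8% of all genes that passed in either direction. CDC28, for the cyclin-dependent kinase, rose by 0.56 ± 0.09, HSL1, for a kinase that promotes removal of Swe1, by 0.55 ± 0.07, and MIH1, for the phosphatase that reverses its action, by 0.55 ± 0.13. At 30 °C CDC28 (0.67 ± 0.09) and HSL1 (0.24 ± 0.07) were higher and 0 of the 7 lower, near the 29.6% of all genes that passed, and this count was 1 without any one of wild type replicate 2 at 30 °C, either wild type replicate at 37 °C or either knockout replicate at 30 °C.

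**Figure D4:**
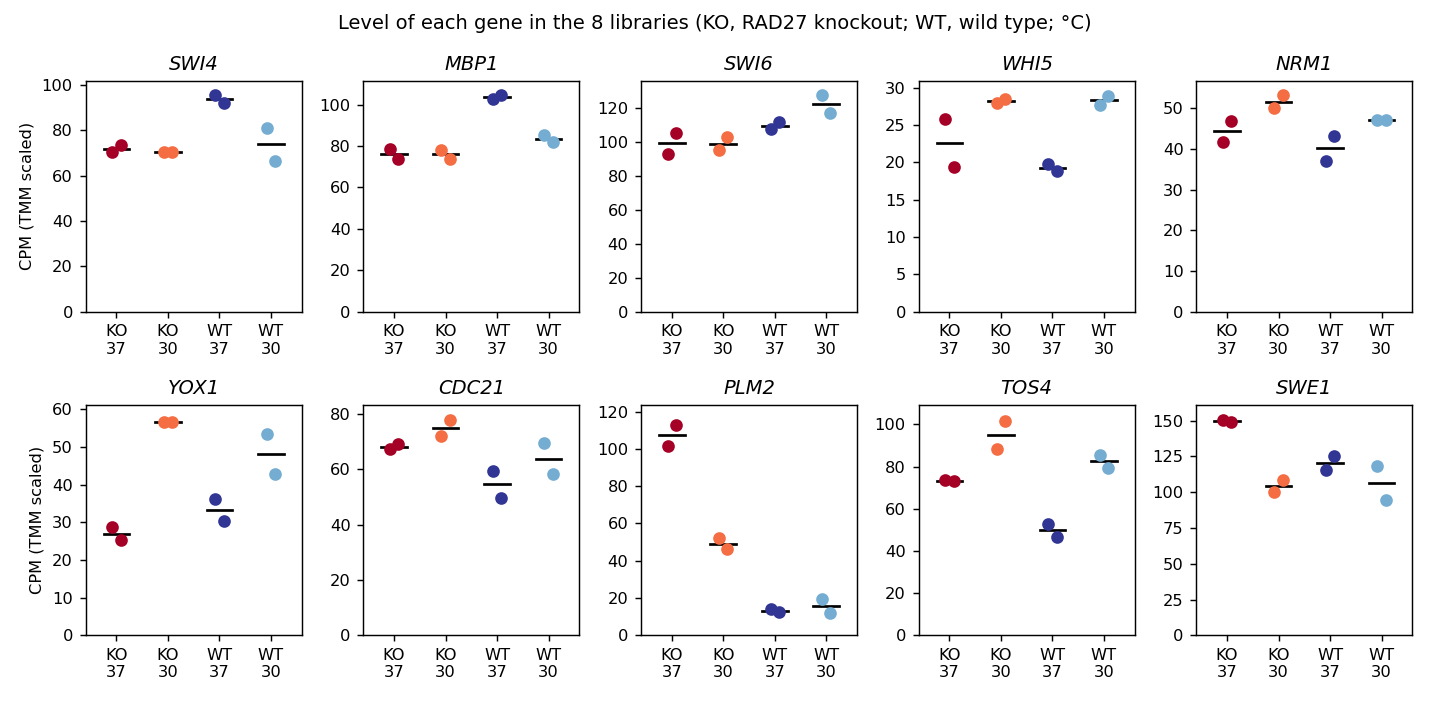
CPM of each of the 10 genes in the 8 libraries, 1 panel per gene with its own vertical axis from 0, points for libraries and bars for the mean of 2. The panel of PLM2 shows 101.6 and 112.7 CPM in the heated knockout and at most 19.6 CPM in wild type, and those of SWI4 and MBP1 show wild type at 37 °C above the other 3 groups.

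SWI4 (YER111C, chromosome V, 382595 to 385876, minus strand, 1 exon) encodes the DNA-binding subunit of SBF. Its levels were 70.7 and 73.4 CPM in the knockout at 37 °C, 70.4 and 70.6 CPM in the knockout at 30 °C, 95.5 and 91.9 CPM in wild type at 37 °C and 81.0 and 66.7 CPM in wild type at 30 °C. The heated wild type libraries lay above the other 6, which spanned 66.7 to 81.0 CPM. SWI4 was lower in the knockout at 37 °C (-0.38 ± 0.09, adjusted p = 0.00357) and did not pass at 30 °C (-0.06 ± 0.10, adjusted p = 0.659).

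MBP1 (YDL056W, chromosome IV, 352877 to 355378, plus strand, 1 exon), for the DNA-binding subunit of MBF, had the same order of groups. It stood at 78.7 and 73.9 CPM in the knockout at 37 °C, 78.2 and 73.8 CPM in the knockout at 30 °C, 102.7 and 104.5 CPM in wild type at 37 °C and 85.4 and 81.7 CPM in wild type at 30 °C. All knockout libraries lay below all wild type libraries. MBP1 was lower in the knockout at 37 °C (-0.44 ± 0.08, adjusted p = 0.000367), and at 30 °C the difference of -0.14 ± 0.08 did not pass (adjusted p = 0.23).

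Heat raised both subunit genes in wild type, SWI4 by 0.35 ± 0.10 (adjusted p = 0.0138) and MBP1 by 0.31 ± 0.08 (adjusted p = 0.00934). In the knockout the log2 fold changes with heat were 0.03 ± 0.10 for SWI4 and 0.01 ± 0.08 for MBP1, and both passed with library size scaling (0.27, adjusted p = 0.0373, and 0.24, adjusted p = 0.0214). The rise of SWI4 in wild type was lost with DESeq2 (adjusted p = 0.0553), without wild type replicate 2 at 30 °C (0.21, adjusted p = 0.19) and without wild type replicate 1 at 37 °C (adjusted p = 0.0931), and that of MBP1 with DESeq2 (adjusted p = 0.0626), without wild type replicate 2 at 30 °C (adjusted p = 0.0894) and without wild type replicate 2 at 37 °C (adjusted p = 0.0558). The interactions, -0.31 ± 0.14 for SWI4 (adjusted p = 0.0909) and -0.31 ± 0.11 for MBP1 (adjusted p = 0.0546), did not pass. That of SWI4 did without wild type replicate 1 at 30 °C (adjusted p = 0.0307), and that of MBP1 did with median-of-ratios scaling (adjusted p = 0.0398), with TMM over genes other than ribosomal protein genes (adjusted p = 0.046) and without knockout replicate 1 at 37 °C (adjusted p = 0.02).

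SWI6 (YLR182W, chromosome XII, 517940 to 520351, plus strand, 1 exon) encodes the subunit shared by SBF and MBF. It had 93.0 and 105.3 CPM in the knockout at 37 °C, 94.9 and 102.9 CPM in the knockout at 30 °C, 107.4 and 111.5 CPM in wild type at 37 °C and 127.6 and 117.0 CPM in wild type at 30 °C. The knockout libraries were again below all wild type libraries, with little between the temperatures in the knockout. SWI6 was lower in the knockout at 30 °C (-0.31 ± 0.09, adjusted p = 0.0188), a call lost with DESeq2 (adjusted p = 0.0703), without wild type replicate 1 at 30 °C (adjusted p = 0.154) and without knockout replicate 1 at 30 °C (adjusted p = 0.119).

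At 37 °C the difference of SWI6 was -0.14 ± 0.09 (adjusted p = 0.172), and -0.25 (adjusted p = 0.035) without knockout replicate 2 at 37 °C. With heat its log2 fold change was 0.00 ± 0.09 in the knockout and -0.16 ± 0.09 in wild type, and neither passed, though the value in the knockout became 0.24 (adjusted p = 0.0426) with library size scaling.

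WHI5 (YOR083W, chromosome XV, 479533 to 480420, plus strand, 1 exon) encodes the repressor of SBF. It had between 100 and 150 reads a library. Its levels were 25.8 and 19.4 CPM in the knockout at 37 °C, 27.9 and 28.5 CPM in the knockout at 30 °C, 19.7 and 18.9 CPM in wild type at 37 °C and 27.7 and 28.9 CPM in wild type at 30 °C. The unheated groups overlapped, and the heated knockout libraries stood apart from each other, one near the heated wild type level and the other near the unheated level.

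Heat lowered WHI5 in wild type (-0.55 ± 0.15, adjusted p = 0.0143). Of 18 alternatives 5 ended that call, namely DESeq2 (adjusted p = 0.0752), library size scaling (adjusted p = 0.0501) and the fits without wild type replicate 2 at 30 °C (adjusted p = 0.091), replicate 1 at 37 °C (adjusted p = 0.0718) or replicate 2 at 37 °C (adjusted p = 0.0915). In the knockout the value was -0.32 ± 0.14 (adjusted p = 0.0683), and -0.56 (adjusted p = 0.00467) without knockout replicate 1 at 37 °C. Against wild type, WHI5 in the knockout gave 0.22 ± 0.15 at 37 °C and -0.01 ± 0.14 at 30 °C, and neither passed. Without knockout replicate 2 at 37 °C the difference at 37 °C was 0.41 (adjusted p = 0.0408).

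NRM1 (YNR009W, chromosome XIV, 642690 to 643439, plus strand, 1 exon), for the co-repressor that MBF itself switches on, passed in 0 of the 5 comparisons. It had 41.7 and 46.9 CPM in the knockout at 37 °C, 49.9 and 53.1 CPM in the knockout at 30 °C, 37.0 and 43.2 CPM in wild type at 37 °C and 47.1 and 47.1 CPM in wild type at 30 °C. The unheated libraries were above the heated ones in each genotype. Its log2 fold changes ran from -0.23 ± 0.11 with heat in wild type to 0.15 ± 0.11 in the knockout against wild type at 37 °C. Without knockout replicate 2 at 37 °C its fall with heat in the knockout passed (-0.31, adjusted p = 0.0481, against -0.22 ± 0.11 and adjusted p = 0.101 with all libraries).

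YOX1 (YML027W, chromosome XIII, 221406 to 222563, plus strand, 1 exon) encodes a homeodomain repressor. It stood at 28.7 and 25.3 CPM in the knockout at 37 °C, 56.7 and 56.7 CPM in the knockout at 30 °C, 36.2 and 30.4 CPM in wild type at 37 °C and 53.5 and 42.7 CPM in wild type at 30 °C. The heated libraries were below all unheated ones, with the lowest values in the heated knockout and the highest in the unheated knockout. Heat lowered YOX1 in the knockout by 1.07 on the log2 scale, a 2.10-fold fall (-1.07 ± 0.13, adjusted p = 1.75e-05), which held in all 18 other settings.

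In wild type heat lowered YOX1 less (-0.53 ± 0.13, adjusted p = 0.00898), a call lost without wild type replicate 1 at 30 °C (adjusted p = 0.117) and without wild type replicate 2 at 37 °C (adjusted p = 0.106). The interaction was -0.54 ± 0.19 and lay just inside the threshold (adjusted p = 0.0416). It was lost in 7 of 17 other settings, with adjusted p between 0.0762 and 0.177. The genotypes did not differ beyond the threshold at either temperature, with -0.30 ± 0.14 at 37 °C (adjusted p = 0.0841, and 0.0296 without knockout replicate 1) and 0.24 ± 0.12 at 30 °C (adjusted p = 0.162) in the knockout against wild type.

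Levels of different genes are compared per length of gene, as CPM per kilobase. In wild type at 30 °C the order was CDC21 (69.8 ± 8.47), NRM1 (62.7), TOS4 (56.2 ± 2.98), SWI6 (50.7 ± 3.10), SWE1 (43.2 ± 6.68), YOX1 (41.6 ± 6.60), MBP1 (33.4 ± 1.04), WHI5 (31.8 ± 0.985), SWI4 (22.5 ± 3.08) and PLM2 (10.1 ± 3.46, SD, n = 2). Only SWE1 and YOX1 were neighbours whose libraries overlapped in that order. In the knockout at 37 °C PLM2 held the second place at 68.4 ± 5.02 CPM per kilobase, after CDC21 at 74.6 ± 1.13, and YOX1 was the ninth at 23.3 ± 2.10, where its libraries overlapped those of WHI5 above it and SWI4 below it. CDC21 headed the order in all 4 groups, with libraries that overlapped those of NRM1 in wild type at 37 °C.

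The other regulators of the G1/S switch moved in both directions. Of 13 such genes, 5 were higher and 3 lower in the knockout at 37 °C (4 and 4 with median-of-ratios scaling), where 30.5% and 29.2% of all genes were, and 5 were higher and 1 lower at 30 °C (5 and 0 with library size scaling), where 829 of the 5667 genes were higher and 851 lower. The median log2 fold change was 0.01 at 37 °C and 0.20 at 30 °C. MSA2, for a protein that binds SBF and MBF and promotes their activity, stood at 74.2 ± 10.5 CPM in the knockout and 27.2 ± 0.721 CPM in wild type at 37 °C (1.45 ± 0.13, adjusted p = 1.7e-06) and at 61.8 ± 1.04 and 44.1 ± 7.27 CPM at 30 °C (0.49 ± 0.13, adjusted p = 0.0125). Its relative MSA1 was higher at 37 °C (0.82 ± 0.08) and STB1, for a Swi6-binding protein, at 30 °C (0.67 ± 0.10). Of the 3 genes lower at 37 °C, FAR1, for an inhibitor of the G1 cyclin kinase in mating, fell most (-0.75 ± 0.11, adjusted p = 6.8e-05).

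With heat, 2 of these 13 regulators rose and 5 fell in the knockout (5 and 2 with library size scaling, 1 and 3 without knockout replicate 2 at 30 °C), where 30.9% and 28.2% of all genes did, and 2 rose and 2 fell in wild type, where 15.7% and 17.1% did. FAR1 fell with heat in the knockout (-1.46 ± 0.10) and in wild type (-0.95 ± 0.10). BCK2, for an activator of G1/S genes that acts apart from cyclin, rose in both (0.50 ± 0.07 in the knockout and 0.58 ± 0.07 in wild type). MSA2 fell with heat in wild type (-0.69 ± 0.15), and its interaction was 0.96 ± 0.19 (adjusted p = 0.00219). CLN3, for the upstream G1 cyclin, had an interaction of -0.53 ± 0.13 (adjusted p = 0.00754).

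Known MBF targets outside the 10 genes were mostly higher in the knockout. Of 27, 18 were higher and 1 lower at 37 °C, where 30.5% of all genes were higher and 29.2% lower. At 30 °C 16 were higher and 0 lower, where 829 of the 5667 genes were higher and 851 lower. The medians of the 27 were 0.45 at 37 °C and 0.39 at 30 °C on the log2 scale. DUN1, for a damage checkpoint kinase, was 84.9 ± 0.0502 CPM in the knockout and 25.3 ± 2.87 CPM in wild type at 37 °C (1.74 ± 0.11, adjusted p = 7.63e-08). RNR1, for the large subunit of ribonucleotide reductase, was 1194 ± 66.6 CPM in the knockout and 696.6 ± 49.1 CPM in wild type at 30 °C (0.78 ± 0.13, adjusted p = 0.000894). The count at 30 °C was 10 without knockout replicate 2 at 30 °C and 14 with DESeq2.

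With heat, 13 of the 27 MBF targets fell and 3 rose in the knockout, where 28.2% of all genes fell and 30.9% rose. In wild type 12 fell and 0 rose, where 17.1% and 15.7% of all genes did. With library size scaling the same steps gave 3 that fell and 8 that rose in the knockout and 6 that fell and 2 that rose in wild type, and with DESeq2 6 fell and 3 rose in the knockout and 6 fell and 0 rose in wild type. The total in the knockout was 10 without knockout replicate 1 and 8 without knockout replicate 2 at 30 °C, and that in wild type was 4 without wild type replicate 1 at 30 °C and 5 and 7 without wild type replicates 1 and 2 at 37 °C. In the interaction 4 were higher and 1 lower, where 16.4% and 17.2% of all genes were (10 and 0 with library size scaling, 2 and 0 with DESeq2 and without wild type replicate 2 at 37 °C, 3 and 0 without knockout replicate 1 at 30 °C, 6 and 3 without knockout replicate 1 at 37 °C). The largest interaction was that of DUN1 (1.14 ± 0.16, adjusted p = 0.000214).

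Known SBF targets were split between the directions. Of 24, 8 were higher and 11 lower in the knockout at 37 °C (10 and 5 with library size scaling), where 30.5% of all genes were higher and 29.2% lower. At 30 °C 5 were higher and 6 lower, where 829 of the 5667 genes were higher and 851 lower, and the medians were 0.01 at both temperatures. The total at 37 °C was 12 without wild type replicate 1 at 37 °C, and that at 30 °C was 5 and 6 without wild type replicates 1 and 2 and 7 without knockout replicate 1 at 30 °C. CLN1, for a G1 cyclin, was 104.6 ± 2.68 CPM in the knockout and 54.5 ± 1.71 CPM in wild type at 37 °C (0.94 ± 0.09, adjusted p = 3.3e-06). HO, the mating type endonuclease gene, was lower in knockout cells, by -1.78 ± 0.25 at 37 °C and -1.08 ± 0.19 at 30 °C on the log2 scale, and TOS6, for a wall protein, was lower at 37 °C (-1.07 ± 0.10). The difference between the MBF and SBF lists was not tested.

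With heat, 14 SBF targets fell and 2 rose in the knockout (13 and 6 with library size scaling), against 28.2% and 30.9% of all genes, with a median of -0.50. In wild type 15 fell and 1 rose (12 and 4 with library size scaling), against 17.1% and 15.7% of all genes, with a median of -0.45. PCL1, for a cyclin of the kinase Pho85, fell by 1.52 on the log2 scale in the knockout (SE 0.14). CLN1 fell in wild type (-1.04 ± 0.09) and had an interaction of 1.01 ± 0.13 (adjusted p = 0.000128). SVS1, a gene first known for vanadate sensitivity, also fell in wild type (-0.83 ± 0.10).

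The 8 other genes listed here are known as early cell cycle box genes, and matches to the box before them are not given. Of these, 2 were higher and 1 lower in the knockout at 37 °C, a smaller share than the 59.8% of all genes that passed. At 30 °C 2 were higher and 0 lower, near the 29.6% of all genes that passed. The 3 calls at 37 °C were 1 without wild type replicate 1 at 37 °C. CDC6, for the origin licensing factor, rose at 30 °C in the knockout (0.63 ± 0.12), as did CLN3 (0.43 ± 0.09). With heat 5 of the 8 fell and 0 rose in the knockout (2 and 2 with library size scaling, 3 and 0 without knockout replicate 1 at 30 °C), where 28.2% of all genes fell and 30.9% rose. In wild type 2 fell and 1 rose (1 and 2 with library size scaling, 5 and 1 with TMM over genes other than ribosomal protein genes), where 17.1% and 15.7% of all genes did. Without single knockout libraries the total in wild type was 5 to 7. CDC6 fell by 1.04 on the log2 scale with heat in the knockout (SE 0.12).

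**Figure D5:**
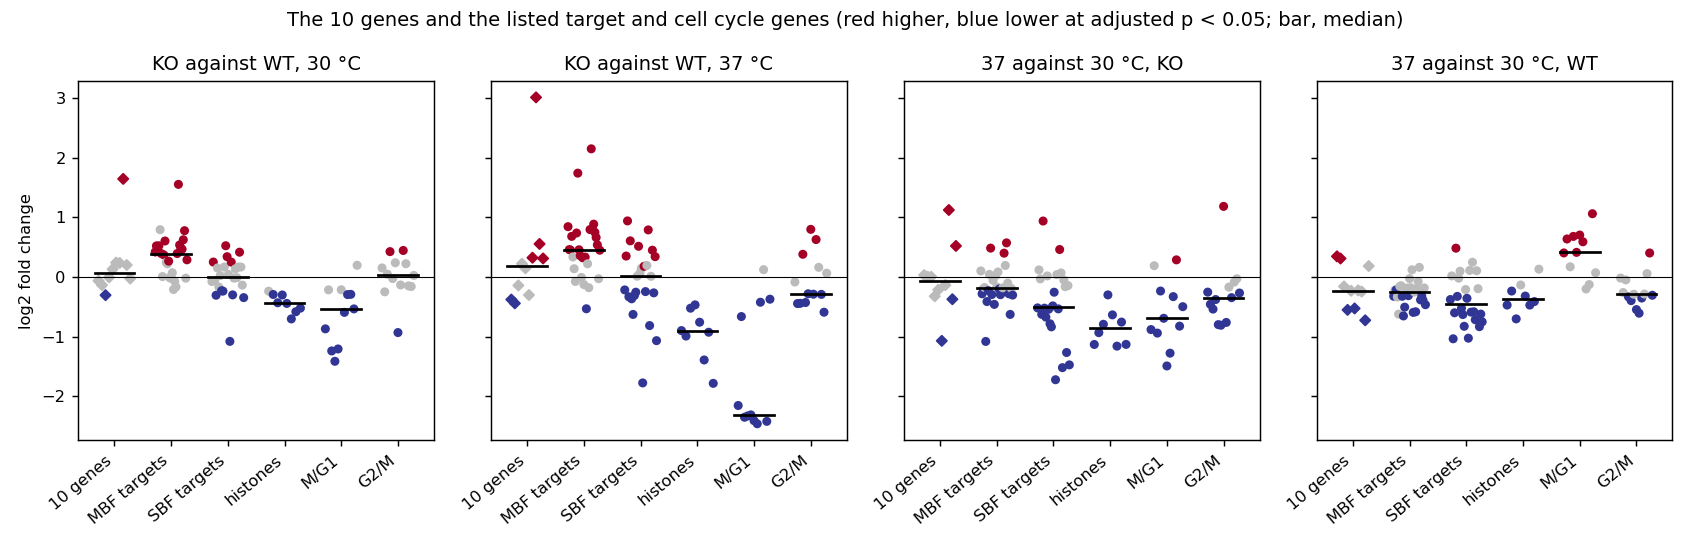
Log2 fold changes of the 10 genes and of the listed MBF targets (27), SBF targets (24), S phase histone genes (8), M/G1 genes (11) and G2/M genes (13) in 4 comparisons, with a point per gene and a bar at the median. In the knockout against wild type at 37 °C the median is 0.45 for MBF targets and -2.32 for M/G1 genes.

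Marker genes of other phases also moved between the groups, and their part in the results above was not tested. The 8 histone genes of S phase summed to 1845 to 1875 CPM in the knockout at 37 °C, 2872 to 3414 CPM in the knockout at 30 °C, 3357 to 3544 CPM in wild type at 37 °C and 4123 to 4384 CPM in wild type at 30 °C. In knockout cells at 37 °C all 8 were lower, against 29.2% of all genes, and at 30 °C 7 were, against 851 of the 5667 genes, with 0 higher under TMM or library size scaling. The 11 M/G1 genes summed to 2159 to 2284, 3828 to 3956, 9550 to 9738 and 7019 to 7080 CPM in the same order of groups, and against the same shares of all genes 10 of 11 were lower in the knockout at 37 °C and 8 of 11 at 30 °C.

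The 13 G2/M genes summed to 1244 to 1328 CPM in the knockout at 37 °C and 1337 to 1413 CPM in wild type at 37 °C, and to 1432 to 1603 CPM in the knockout and 1545 to 1562 CPM in wild type at 30 °C. Of these, 3 were higher and 7 lower in the knockout at 37 °C (4 and 4 with library size scaling), where 30.5% of all genes were higher and 29.2% lower. At 30 °C 2 were higher and 1 lower (3 and 2 without either knockout replicate at 37 °C), where 829 of the 5667 genes were higher and 851 lower. CLB1, for a mitotic cyclin, was higher in the knockout at 37 °C (0.80 ± 0.08) and lower at 30 °C (-0.93 ± 0.09). No marker of the 3 phase lists had 0 reads in any library.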

How the data were processed

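The authors deposited raw read counts per gene for 8 RNA libraries. STAR and HTSeq, and R64 and sacCer3 as builds, are named per the submitters' processing notes. The sources used here give no tool versions, strandedness or rule for shared reads. The table holds 6692 genes, 684 of them without an entry in the R64 annotation, so their overlap with the 10 genes was not checked. Counts were fitted in R 4.3.3 with edgeR 4.0.16 (glmQLFit and glmQLFTest, 1 coefficient per group, all 8 libraries, TMM, filterByExpr at a count of 10 and a total of 15), with Benjamini-Hochberg adjustment over 5667 genes and a threshold of 0.05. The 5 comparisons share 1 estimate of the spread, with 4 residual degrees of freedom and a biological coefficient of variation of 6.19%. SE is the absolute log2 fold change over the square root of F, and ± after a CPM mean is the SD of 2 libraries. No label states that replicates came from separate cultures, so a p measures the spread between these samples, which may be technical. Members and gene lists were chosen with earlier results of these data known. The named genes were the 10, RAD27, the 3 nearest profiles and up to 3 largest changes per list and comparison, with DFR1 named after its values were seen. In simulated counts for the knockout against wild type at 37 °C, the fit recovered 81 of 100 genes changed 1.5-fold and 90 of 100 changed 2-fold, and called 8 unchanged genes. For the interaction it recovered 54 of 100 changed 1.5-fold and 87 of 100 changed 2-fold, and called 7 unchanged genes. The simulation gave all groups the same spread, whereas the real replicates differed most in the knockout at 37 °C. Alternatives were 3 scalings, 2 filters, the older quasi-likelihood form, limma-voom (limma 3.58.1), DESeq2 1.42.0, a replicate block, the 4 libraries of a comparison alone and each library left out. Figures were made with matplotlib 3.10.9. The floor of 3 reads covers counting error only, whereas SE and SD cover the spread between libraries.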

Additional observations from a re-analysis of the deposited data

Results flagged for a closer look

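The response to heat differed between the genotypes, by a test of that difference, for 2 of the 10 genes, where 33.6% of all genes passed. PLM2 had an interaction of 1.37 on the log2 scale (adjusted p = 0.00166), with 101.6 and 112.7 CPM in the knockout at 37 °C, 52.2 and 46.1 CPM in the knockout at 30 °C, 14.0 and 12.5 CPM in wild type at 37 °C and 19.6 and 12.0 CPM in wild type at 30 °C. YOX1 had an interaction of -0.54 (adjusted p = 0.0416), with 28.7 and 25.3 CPM in the knockout at 37 °C, 56.7 and 56.7 CPM in the knockout at 30 °C, 36.2 and 30.4 CPM in wild type at 37 °C and 53.5 and 42.7 CPM in wild type at 30 °C, and its call depended on the setting. Groups of 2 libraries are too small for a check of single outlying libraries.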

How the results depend on the processing

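Direction was followed gene by gene for the 10 genes alone, and none of their values past the threshold turned in the settings run. The counts of the 10 genes called stayed within 1.5 times the main count in most settings. With DESeq2 the count fell to 1 in the knockout against wild type at 30 °C, to 2 with heat in wild type and to 1 in the interaction, and the count over all genes at 30 °C fell to 1075. With single libraries left out, the number of the 10 genes called ran from 1 to 2 in the knockout against wild type at 30 °C, from 5 to 7 at 37 °C, from 3 to 5 with heat in the knockout, from 2 to 5 with heat in wild type and from 1 to 3 in the interaction. Over all genes the same fits gave 972 to 2164, 2740 to 3451, 2832 to 3402, 1044 to 2267 and 1339 to 2388. The count over all genes at 30 °C was 972 without wild type replicate 1, 1005 without wild type replicate 2 and 1087 without knockout replicate 2 at 30 °C, and with heat in wild type it was 1121 without wild type replicate 2 at 30 °C and 1044 without wild type replicate 1 at 37 °C. For the MBF and SBF lists these fits gave 10 to 19 and 5 to 11 genes called in the knockout against wild type at 30 °C and 16 to 20 and 12 to 19 at 37 °C, an alternative chosen after seeing the data. Replicate numbers are shared across groups, but no label says what they pair, and the correlation of replicate differences between groups ran from -0.11 to 0.11. With a replicate block the 10 genes gave 2, 6, 4, 5 and 2 calls in the 5 comparisons, as without it, and all genes gave 1775, 3409, 3381, 1925 and 1973. Library size scaling alone gave 2182 higher and 1123 lower genes in the knockout at 37 °C, 2803 and 842 with heat in the knockout, 1497 and 596 with heat in wild type and 1197 and 604 in the interaction. WHI5, with 100 to 150 reads a library, and PLM2 in wild type, with 58 to 88, are the genes whose depth limits precision most.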

Other observations

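Ratios of reads per base of gene between regulators within a library need no scaling between libraries, and were chosen after the levels had been seen. SWI4 over MBP1 was 0.684 and 0.757 in the heated knockout, 0.686 and 0.729 in the unheated knockout, 0.709 and 0.670 in heated wild type and 0.723 and 0.622 in unheated wild type, with overlap between all groups. The DNA-binding subunits of SBF and MBF thus kept nearly the same proportion of transcripts in groups between which each of them differed.

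WHI5 over SWI4, the SBF repressor over the SBF subunit, was 1.35 and 0.977 in the heated knockout, 1.46 and 1.49 in the unheated knockout, 0.763 and 0.759 in heated wild type and 1.26 and 1.60 in unheated wild type. Heated wild type was below the other 3 groups. NRM1 over MBP1 was 1.77 and 2.12, 2.13 and 2.40, 1.20 and 1.38, and 1.84 and 1.92 in the same order, again with heated wild type lowest. YOX1 over SWI4 split by temperature, at 1.15 and 0.977 in the heated knockout and 1.07 and 0.937 in heated wild type, against 2.28 and 2.28 in the unheated knockout and 1.87 and 1.82 in unheated wild type. These ratios were not tested.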
